A study of Mus musculus with 8 samples.

Results

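The 10 genes described here carry the calcium, calcineurin and NFAT signal of T cells. They were picked by symbol from the deposited table of normalized counts, where all 10 had a row among 24303 genes. *Orai1* and *Stim1* encode the pore and the sensor of store-operated calcium entry. *Ppp3ca*, *Ppp3cb* and *Ppp3cc* encode the catalytic subunits of the phosphatase calcineurin, and *Rcan1* encodes a regulator that binds it. *Nfatc1*, *Nfatc2* and *Nfatc3* encode NFAT transcription factors that calcineurin dephosphorylates, and *Nfat5* encodes the family member that lacks the calcineurin docking region and answers to osmotic stress.

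After T cell receptor engagement, calcium leaves the endoplasmic reticulum, Stim1 senses the loss and opens Orai1 in the plasma membrane, and the calcium that enters loads calmodulin and switches on calcineurin. Dephosphorylated NFAT then moves into the nucleus, where with AP-1 it drives cytokine genes and without AP-1 it is linked to anergy and exhaustion genes such as *Pdcd1*, which encodes PD-1. Most of this control acts on phosphorylation and location of the proteins, which RNA levels do not measure.

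The cells were P14 CD8 T cells, TCR-transgenic cells of spleen origin that recognize the GP33 peptide of LCMV, kept in vitro after 2 days on plates coated with anti-CD3 and anti-CD28. Each of 4 conditions had 2 libraries of polyA RNA. Effector cells were collected on day 7, and the labels do not give their stimulation after the plates. In a flow cytometry figure, the paper names day 7 cells of this culture "Effector 7d-stim". The remaining conditions were collected on day 19: Acute-2d cells saw no peptide after the plates, Acute-7d cells saw GP33 up to day 7 and were then rested, and T_Dysf cells received GP33 up to day 19 with TGF-β1 from day 7. T_Dysf cells were therefore collected under stimulation and both Acute conditions at rest, so antigen, TGF-β1 and recent signaling cannot be told apart in them. The methods describe pooling of the activated cells on day 2 and do not say which libraries shared a pool, so the spread between libraries of a condition may be partly technical. In bulk RNA, fewer cells that express a gene and less RNA per cell cannot be told apart.

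Depth was close in all libraries, at 19382147 to 24856195 reads on genes. A prefix, RESUB, which the labels do not explain, opens the names of Acute-7d replicate 1 and of the whole Effector pair. These 3 libraries held 53.5 to 115 normalized counts of *Xist* and 1334 to 2161 of the Y-linked *Ddx3y*, whereas the other 5 held at least 21871 of *Xist* and at most 2.59 of *Ddx3y*, so the prefix and the sex of the cells cannot be told apart, and the Acute-7d libraries differ in these transcripts as cells of different sex would. The prefix covers the whole Effector condition, and only Acute-7d has a library on each side. The CD8 label held in every library, with *Cd8a* at 11170 normalized counts or more and *Cd4* at 13.0 or less. *Foxp3*, also on the CD4 T cell list, was at 49.5 and 45.2 in Acute-7d and at 2.15 to 21.0 in the other 6 libraries. A sum of 5 myeloid markers was 263 to 648 over all libraries, with *Lyz2* the largest part. The sum of 10 T cell identity genes was 78229 to 92296 normalized counts in Effector and Acute libraries and 149866 and 135903 in T_Dysf. *Cd3e*, *Cd3g* and *Cd8a* carried most of that difference, while *Cd2* was lower in T_Dysf (3439 and 3478) than elsewhere (6566 to 8821), and *Cd247* and *Trbc1* overlapped the other libraries. A sum of 3 NK cell markers, mostly *Klrb1c*, was 1038 and 1497 in Acute-7d and 249 to 567 in the other 6 libraries. A sum of 7 B and plasma cell markers was 64.7 to 202 in Effector and Acute libraries and 518 and 576 in T_Dysf, mostly *Jchain* and *Sdc1*, while *Ms4a1* stayed at 13.0 or less in every library; the part of these sums in the results was not tested.

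Across the pathway, the 10 genes differed little between conditions. Some of 87 other pathway genes moved more, but those named below were mostly picked for a large change. Of the 73 whose mean reached 50, 13 had a limma adjusted p under 0.05 in T_Dysf vs Acute-7d (15.3% of all genes at that mean). In T_Dysf vs Effector, 26 did (26.3%). The highest condition mean was between 1.32 and 1.86 times the lowest for each of the 10 genes. Of 60 tests (10 genes in 6 comparisons), 6 passed an adjusted p under 0.05 in limma, and they came from *Nfatc3* and *Stim1* alone. By comparison, 0.169% to 15.7% of all genes passed, and 0.0166% to 27.7% of those whose mean reached 50. No test met the DEG rule of an adjusted p under 0.05 with at least a 2-fold change, and the largest difference was 0.86 on the log2 scale. At an unadjusted p under 0.05, 20 of the 60 tests passed. The 95% confidence interval lay within 2-fold in either direction in 51 of the 60 tests, and in all 6 comparisons for 7 genes.

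**Figure D1:**
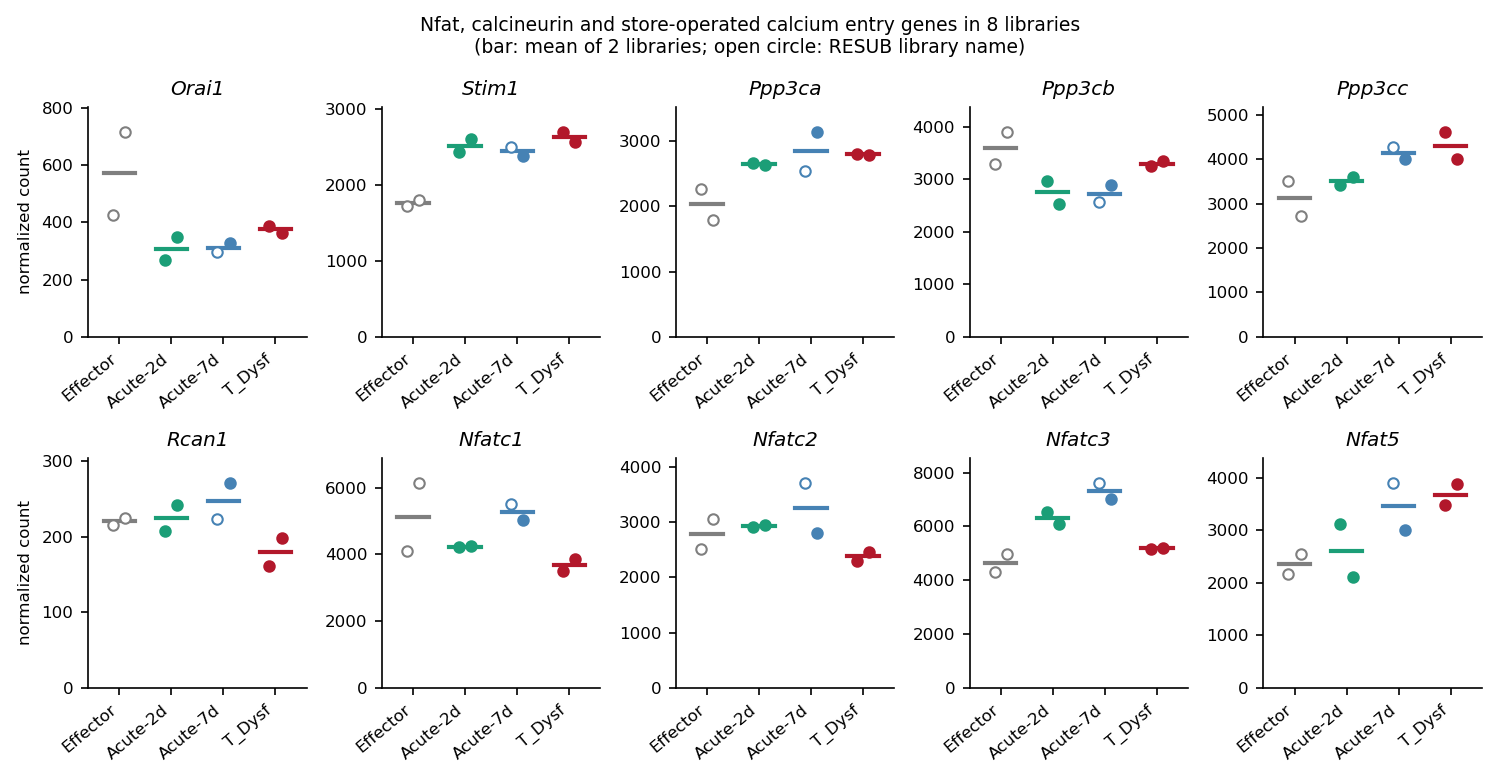
Normalized counts of the 10 genes in the 8 libraries, with 1 panel a gene, an axis from 0, points for libraries, bars for the mean of 2 libraries and open circles for RESUB library names. *Nfatc3* was lower in Effector (4311 and 4968) and T_Dysf (5158 and 5211) than in both Acute conditions, and *Stim1* was lowest in both Effector libraries (1719 and 1801).

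Promoter sequence is shown for *Rcan1*, because its inner start is known as a calcineurin and NFAT responsive start, and for *Nfatc3*, because its level passed the test. *Nfatc1* was left out of this search. For the other members, RefSeq start sites (build GRCm38.p6) gave 10 windows of 250 bases before a start, from 7 genes. The core NFAT element GGAAA was searched on both strands and is in capitals below (as TTTCC where it lies on the other strand), a search that also finds GGAAAA elements. It was in 55.6% of 32817 windows of all genes, and 6.38% of windows held 3 or more.
Rcan1, inner start, chr16:92400079-92400328, minus strand: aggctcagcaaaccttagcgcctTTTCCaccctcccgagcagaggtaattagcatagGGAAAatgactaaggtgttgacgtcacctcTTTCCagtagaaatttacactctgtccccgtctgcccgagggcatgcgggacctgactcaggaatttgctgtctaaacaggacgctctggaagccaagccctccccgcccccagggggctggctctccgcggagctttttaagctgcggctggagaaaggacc
Rcan1, outer start, chr16:92466170-92466419, minus strand: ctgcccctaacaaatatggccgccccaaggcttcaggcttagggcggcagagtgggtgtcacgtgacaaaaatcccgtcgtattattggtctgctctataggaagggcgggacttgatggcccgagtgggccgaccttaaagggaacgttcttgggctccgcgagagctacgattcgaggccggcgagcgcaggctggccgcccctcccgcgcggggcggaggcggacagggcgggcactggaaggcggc
Nfatc3, outer start, chr8:106058568-106058817, plus strand: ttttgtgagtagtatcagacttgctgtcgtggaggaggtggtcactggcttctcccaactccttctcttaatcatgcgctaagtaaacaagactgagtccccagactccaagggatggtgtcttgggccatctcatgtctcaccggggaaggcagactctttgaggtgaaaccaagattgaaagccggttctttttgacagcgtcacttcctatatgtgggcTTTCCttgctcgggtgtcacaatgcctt
Nfatc3, inner start, chr8:106059340-106059589, plus strand: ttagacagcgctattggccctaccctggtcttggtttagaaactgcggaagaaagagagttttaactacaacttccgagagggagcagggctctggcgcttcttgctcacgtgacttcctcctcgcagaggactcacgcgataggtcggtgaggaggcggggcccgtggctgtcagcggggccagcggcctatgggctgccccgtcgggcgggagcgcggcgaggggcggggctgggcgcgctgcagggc
The inner *Rcan1* window held 3 GGAAA elements and the outer one 0. The *Nfatc3* windows held 1 and 0. Of the windows not printed, the outer one of *Nfatc2* and that of *Ppp3cb* also held 3, and that of *Stim1*, the other member that passed, held 0. Each is a match of letters and not a shown site, and the table sums the starts of a gene, so the values below do not separate them. Bases after the start lay in a GENCODE transcript for the inner *Rcan1* window, but not for the outer one or for either *Nfatc3* window.

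Store-operated calcium entry opens the pathway. *Orai1* (chr5:123015074-123030456, mm10) was at 427 and 718 normalized counts in Effector, 269 and 348 in Acute-2d cells, 296 and 327 in Acute-7d, and 389 and 365 in T_Dysf. Both Effector libraries were above the other 6, and the Effector libraries differed from each other more than any Acute or T_Dysf pair. *Orai1* had the widest range of condition means of the 10 genes (0.89 on the log2 scale), but neither Effector vs Acute-2d (log2 fold change 0.86, SE 0.28, adjusted p = 0.109) nor Effector vs Acute-7d (0.83, SE 0.28, adjusted p = 0.119) passed. Without Effector replicate 1, these were 1.23 (adjusted p = 0.0301) and 1.20 (adjusted p = 0.0339), values that rest on 1 Effector library whose spread was taken from the other conditions. With all libraries but only genes whose mean reached 50, they passed at 0.0364 and 0.0423. T_Dysf vs Acute-7d was 0.28 with a 95% interval of -0.44 to 0.99.

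*Stim1* (chr7:102267806-102437319) was at 1719 and 1801 normalized counts in Effector, 2433 and 2604 in Acute-2d cells, 2505 and 2382 in Acute-7d, and 2703 and 2571 in T_Dysf. The Effector libraries lay below the other 6. Acute-2d overlapped both Acute-7d and T_Dysf, while T_Dysf lay above Acute-7d. *Stim1* was lower in Effector than in T_Dysf, Acute-7d and Acute-2d: T_Dysf vs Effector was 0.58 on the log2 scale (SE 0.06, adjusted p = 0.00842), Effector vs Acute-7d was -0.47 (SE 0.06, adjusted p = 0.0172) and Effector vs Acute-2d was -0.52 (SE 0.06, adjusted p = 0.0132). Between the day 19 conditions *Stim1* differed by 0.11 at most, and T_Dysf vs Acute-7d had an interval of -0.04 to 0.26. Against Acute-7d replicate 1 alone, the RESUB library of that condition, Effector gave -0.51 (adjusted p = 0.0533, with the spread taken from all conditions), and the other Effector comparisons of *Stim1* coincide with the prefix. Without T_Dysf replicate 1, T_Dysf vs Effector was 0.55 (adjusted p = 0.0558). Effector vs Acute-7d was also lost without Acute-7d replicate 1 (adjusted p = 0.0862).

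Calcineurin is a catalytic subunit joined to a calcium-binding regulatory subunit. *Ppp3ca* (chr3:136670124-136937727) was at 2267 and 1793 normalized counts in Effector, 2660 and 2635 in Acute-2d cells, 2544 and 3146 in Acute-7d, and 2808 and 2788 in T_Dysf. Effector was lowest with no overlap. None of its comparisons passed, and the nearest was Effector vs Acute-7d at -0.49 (SE 0.15, adjusted p = 0.0992).

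*Ppp3cb* (chr14:20499364-20546573) was at 3285 and 3909 in Effector, 2969 and 2530 in Acute-2d cells, 2560 and 2890 in Acute-7d, and 3249 and 3353 in T_Dysf. Effector and T_Dysf libraries were above all 4 Acute libraries, an order unlike that of the other subunits. Effector vs Acute-7d was 0.40 (SE 0.13, adjusted p = 0.110) and T_Dysf vs Acute-7d was 0.28 (SE 0.13, adjusted p = 0.255).

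*Ppp3cc* (chr14:70217865-70289471) was at 3517 and 2729 in Effector, 3418 and 3611 in Acute-2d cells, 4278 and 4003 in Acute-7d, and 4628 and 3999 in T_Dysf. The Acute-7d and T_Dysf libraries overlapped and lay above those of Effector and Acute-2d. T_Dysf vs Effector was 0.47 (SE 0.15, adjusted p = 0.0969), and without Effector replicate 1, which leaves that arm with 1 library, it was 0.66 (adjusted p = 0.0390). An antisense gene, *Gm49417*, shares 3.05% of the *Ppp3cc* exon bases, with 6.02 to 22.1 normalized counts, and whether the quantification used strand is not given in the sources used here.

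Per kb of the longest annotated transcript, *Ppp3cc* was the highest of the 3 catalytic subunits in each condition: 1252 ± 224 (SD, n = 2) normalized counts per kb in Effector, 1409 ± 54.9 in Acute-2d cells, 1660 ± 77.9 in Acute-7d and 1729 ± 178 in T_Dysf. *Ppp3cb* was at 939 ± 115, 718 ± 80.9, 711 ± 60.8 and 862 ± 19.3 per kb in the same order. *Ppp3ca* was the lowest, at 427 ± 70.5, 556 ± 3.73, 598 ± 89.6 and 588 ± 3.01 per kb. The order of the 3 subunits was the same in all conditions and when exon length over all transcripts was used. The testis-enriched regulatory subunit *Ppp3r2* had 1.08 normalized counts in 1 library and 0 in the other 7, and the common regulatory subunit *Ppp3r1* had condition means of 2281 to 2633 normalized counts with no comparison passing.

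*Rcan1* (chr16:92391953-92470867), a feedback regulator of calcineurin and itself a known NFAT target, was at 216 and 225 normalized counts in Effector, 207 and 242 in Acute-2d cells, 223 and 272 in Acute-7d, and 161 and 198 in T_Dysf. Both T_Dysf libraries were below the other 6. T_Dysf vs Acute-7d was -0.46 (SE 0.16, adjusted p = 0.161, 95% interval -0.88 to -0.04), and no *Rcan1* comparison passed. T_Dysf had the lowest mean *Rcan1*, by less than the test could separate. Its paralog *Rcan3* had condition means of 661 to 732 normalized counts and no comparison passing, and per kb of longest transcript *Rcan1* made 33.0% and 36.9% of their sum in the T_Dysf libraries and 40.3% to 45.7% in the other 6, a description without a test.

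The NFAT factors come next. *Nfatc1* was at 4107 and 6155 normalized counts in Effector, 4212 and 4239 in Acute-2d cells, 5511 and 5041 in Acute-7d, and 3490 and 3858 in T_Dysf. The T_Dysf libraries were below the other 6, and the Effector libraries spanned both Acute conditions. T_Dysf vs Acute-7d was -0.52 (SE 0.20, adjusted p = 0.189) and did not pass, but it passed without Effector replicate 1 (adjusted p = 0.0371) or Effector replicate 2 (adjusted p = 0.0369), which leaves the difference itself as it was. With Effector replicate 2 as the lone Effector library, T_Dysf vs Effector was -0.75 (adjusted p = 0.0207) and Effector vs Acute-2d 0.54 (adjusted p = 0.0390).

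*Nfatc2* (chr2:168476410-168601657) was at 2505 and 3060 in Effector, 2913 and 2957 in Acute-2d cells, 3716 and 2807 in Acute-7d, and 2299 and 2463 in T_Dysf. T_Dysf was again below the other 6 libraries. T_Dysf vs Acute-7d was -0.44 (SE 0.17, adjusted p = 0.182).

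*Nfatc3* (chr8:106058840-106130537) was at 4311 and 4968 in Effector, 6544 and 6094 in Acute-2d cells, 7630 and 7007 in Acute-7d, and 5158 and 5211 in T_Dysf. The conditions did not overlap, in the order Acute-7d, Acute-2d, T_Dysf and Effector. *Nfatc3* was lower in T_Dysf than in Acute-7d (-0.50, SE 0.09, adjusted p = 0.0414) and lower in Effector than in Acute-7d (-0.66, SE 0.09, adjusted p = 0.0204) and Acute-2d (-0.45, SE 0.09, adjusted p = 0.0389). T_Dysf vs Acute-2d was -0.28 (adjusted p = 0.127), T_Dysf vs Effector 0.16 (adjusted p = 0.305) and Acute-7d vs Acute-2d 0.21 (adjusted p = 0.740). Within 1 kind of library name, and with the spread taken from all conditions, T_Dysf vs Acute-7d replicate 2 gave -0.43 (adjusted p = 0.179) and Effector vs Acute-7d replicate 1 gave -0.72 (adjusted p = 0.0594). The T_Dysf vs Acute-7d call was lost without any 1 of the Acute or T_Dysf libraries (adjusted p between 0.0761 and 0.179), while its sign held. Effector vs Acute-7d was lost without either Acute-7d or either T_Dysf library (0.0566 to 0.0957), and Effector vs Acute-2d without any library but Effector replicate 2 (0.0678 to 0.151). The opposite-strand gene *Esrp2* shares 1.87% of *Nfatc3* exon bases and was at 7.10 to 16.8 normalized counts.

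*Nfat5* (chr8:107293470-107379517) was at 2166 and 2544 in Effector, 3120 and 2113 in Acute-2d cells, 3914 and 3005 in Acute-7d, and 3486 and 3884 in T_Dysf. T_Dysf was above Effector and Acute-2d and overlapped Acute-7d, unlike the other NFAT genes. T_Dysf vs Effector was 0.65 (SE 0.24, adjusted p = 0.141) and T_Dysf vs Acute-2d was 0.52 (SE 0.24, adjusted p = 0.245). Of 6 osmotic-stress genes known to answer to Nfat5, 1 passed in T_Dysf vs Effector (15.6% of all genes) and in T_Dysf vs Acute-2d (11.9%): *Slc38a2*, an amino acid transporter, which fell by 1.15 and 0.90 on the log2 scale.

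Summed over *Nfatc1*, *Nfatc2* and *Nfatc3*, the T_Dysf libraries held 10946 and 11532 normalized counts against 16858 and 14855 in Acute-7d, 13669 and 13290 in Acute-2d, and 10922 and 14182 in Effector. T_Dysf lay below both Acute conditions and within the Effector range. Per kb of longest transcript, *Nfat5* made 11.9% and 12.4% of the 4 NFAT genes in T_Dysf and 6.31% to 8.93% in the other 6 libraries, while *Nfatc2* kept 14.4% to 17.4% in all 8. These shares were computed after the values were seen and are descriptions. *Nfatc1* was above *Nfatc3* per kb of exon in each condition, but per kb of longest transcript only in Effector, so their order depends on the length used.

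The count of members that passed is given for each comparison beside the share of all genes that did. In T_Dysf vs Acute-7d, 1 of 10 passed (*Nfatc3*), where 9.21% of all genes and 15.3% of the genes whose mean reached 50 did. In T_Dysf vs Effector, 1 of 10 passed (*Stim1*, 15.6% of all genes and 26.3% of those whose mean reached 50). *Nfatc3* and *Stim1* passed in Effector vs Acute-7d (14.9% of all genes) and in Effector vs Acute-2d (15.7%). Among the genes whose mean reached 50, 26.3% and 27.7% passed in these comparisons. In limma, 0 members passed in T_Dysf vs Acute-2d, where 11.9% of all genes did and 1 member had an unadjusted p under 0.05. Of the genes whose mean reached 50, 19.5% passed there. In Acute-7d vs Acute-2d limma passed 0 members, adjusted or not, and 0.169% of all genes after adjustment. Over all 4 conditions at once, *Nfatc3* (adjusted p = 0.0277) and *Stim1* (adjusted p = 0.0142) passed the moderated F test of limma, as did 20.2% of all genes. The share was 34.4% among the genes whose mean reached 50.

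At an unadjusted p under 0.05, the members numbered 4 in T_Dysf vs Acute-7d (26.1% of all genes), 1 in T_Dysf vs Acute-2d (27.7%), 4 in T_Dysf vs Effector (31.7%), 0 in Acute-7d vs Acute-2d (7.31%), 6 in Effector vs Acute-7d (30.4%) and 5 in Effector vs Acute-2d (31.2%). Over all 4 conditions, 2 members had an unadjusted p under 0.05 (37.0% of all genes). DEGs made up 5.57%, 7.35%, 9.22%, 0.169%, 8.06% and 8.78% of all genes in the 6 comparisons in that order, and 0 of the members.

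Libraries of T_Dysf and Acute-7d did not overlap for 7 of the 10 members, as for 73.7% of the genes whose mean reached 50 and 54.8% of all genes. The number was 9 in T_Dysf vs Acute-2d (72.7% of genes whose mean reached 50, 54.3% of all), 9 in T_Dysf vs Effector (74.9%, 56.4%), 3 in Acute-7d vs Acute-2d (37.5%, 32.1%), 7 in Effector vs Acute-7d (73.0%, 54.9%) and 5 in Effector vs Acute-2d (71.6%, 54.2%). All 10 members had a mean above 50. The median log2 fold change of the members lay between -0.32 (Effector vs Acute-7d) and 0.14 (Acute-7d vs Acute-2d), against medians of 0.02 and 0.00 over the 12028 genes whose mean reached 50.

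**Figure D2:**
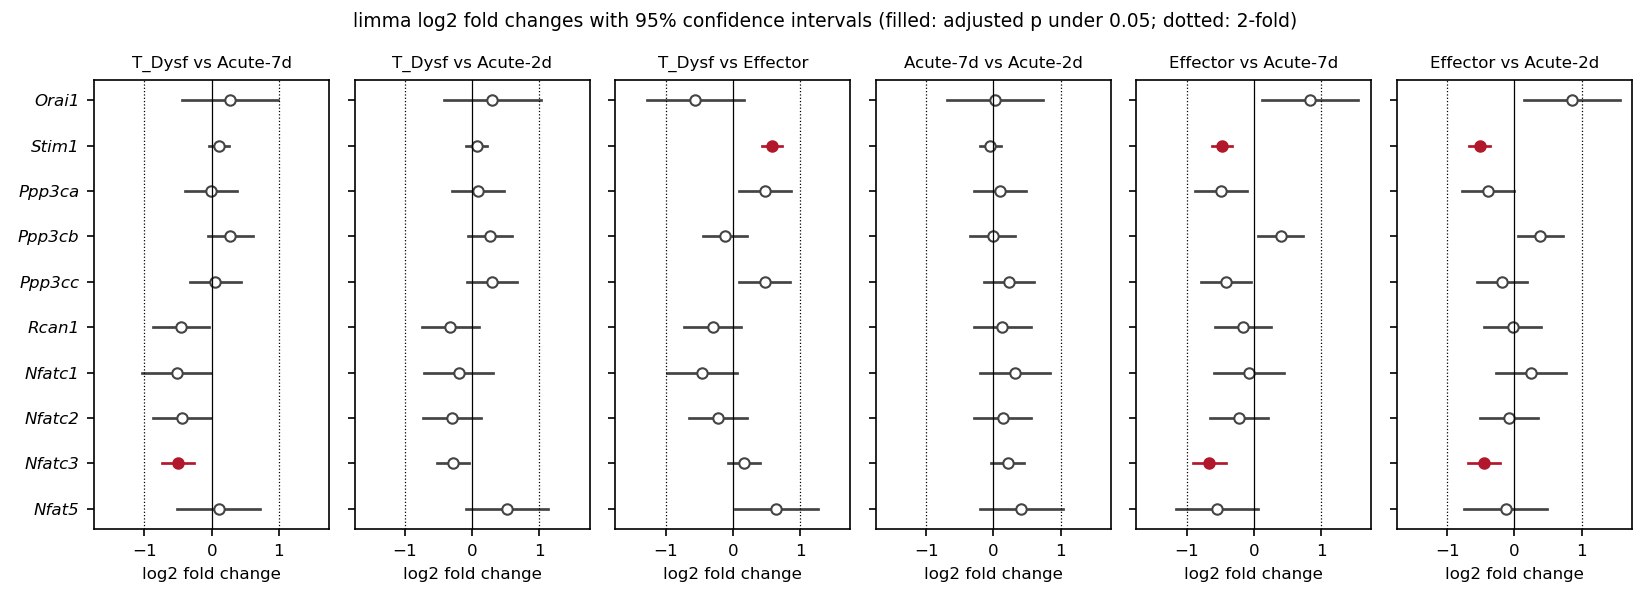
Log2 fold changes of the 10 genes in 6 comparisons (points) with 95% confidence intervals from limma (lines), filled where the adjusted p was under 0.05 and dotted at 2-fold. The 6 filled points belong to *Nfatc3* and *Stim1*, and the widest intervals to *Orai1* and *Nfat5*.

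Of 9 calcium entry partners, some moved more than *Orai1* and *Stim1* did, and 1 passed in T_Dysf vs Acute-7d (9.21% of all genes). *Orai2*, a channel paralog known to form mixed channels with Orai1 and to lower the current, was at 3008 and 2645 normalized counts in Effector, 5086 and 5230 in Acute-2d cells, 6161 and 5711 in Acute-7d, and 2477 and 2705 in T_Dysf. The rested Acute libraries were all at 5086 or more and the Effector and T_Dysf libraries all at 3008 or less. *Orai2* fell by 1.20 on the log2 scale in T_Dysf vs Acute-7d (SE 0.09, adjusted p = 0.00511) and by 0.99 in T_Dysf vs Acute-2d (adjusted p = 0.00607), and both calls held in all 16 alternative analyses. It was also lower in Effector than in Acute-7d (-1.07, adjusted p = 0.0104) and Acute-2d (-0.87, adjusted p = 0.0114).

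Per kb of longest transcript, *Orai2* was the highest of the *Orai* genes in every condition. It made 72.6% to 79.1% of their sum in the Acute libraries and 54.5% to 60.2% in Effector and T_Dysf. *Orai1* made 8.08% to 10.3% in the Acute libraries, 15.9% to 18.2% in T_Dysf and 18.2% to 31.6% in Effector. *Orai3* made 27.3% and 28.6% in T_Dysf and at most 21.7% elsewhere, with no comparison passing. *Stim1* made 76.0% and 74.9% of the *Stim* sum in T_Dysf and 58.7% to 69.1% in the other 6 libraries, and *Stim2*, the store sensor that answers to smaller calcium losses, passed in no comparison (T_Dysf vs Acute-2d -0.73).

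**Figure D3:**
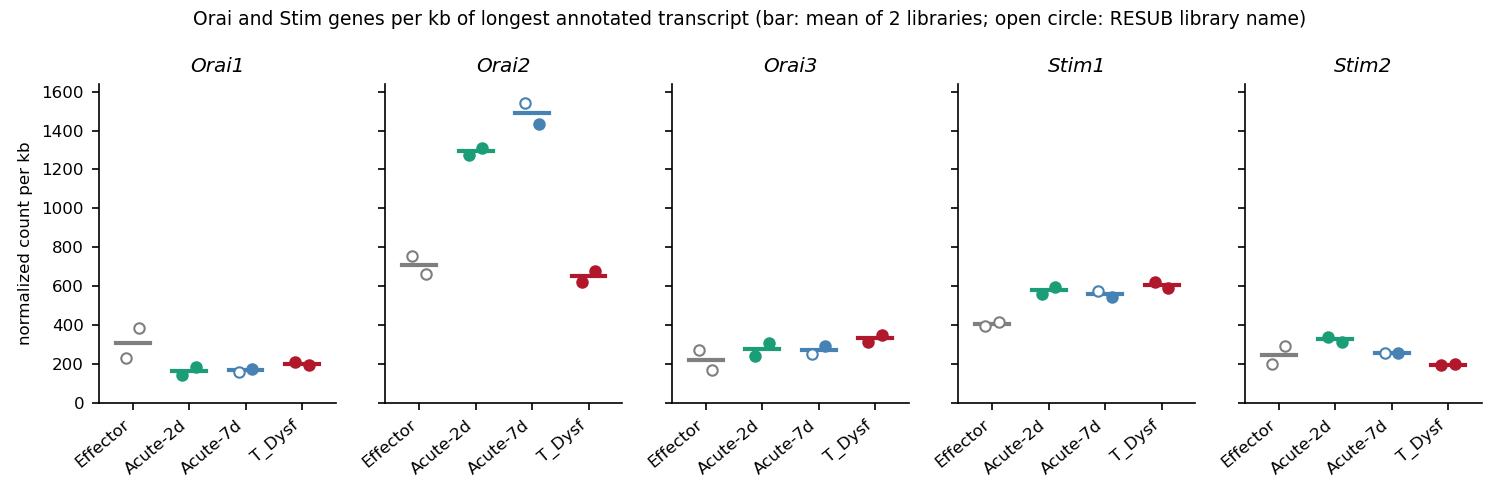
Normalized counts per kb of the longest annotated transcript for *Orai1*, *Orai2*, *Orai3*, *Stim1* and *Stim2* in the 8 libraries, on 1 axis from 0, with bars for means of 2 libraries and open circles for RESUB library names. *Orai2* was at 1275 to 1544 per kb in the 4 Acute libraries and 621 to 754 in Effector and T_Dysf.

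Of the other entry genes, *Saraf*, which turns store-operated entry off, was lower in Effector than in T_Dysf (T_Dysf vs Effector 0.87), Acute-7d (-0.82) and Acute-2d (-1.02); it was chosen after its values were seen. *Cracr2a*, a calcium sensor that stabilizes the Orai1 and Stim1 complex, was higher in T_Dysf than in Effector (1.54, adjusted p = 0.0136). *Cracr2a* did not pass in T_Dysf vs Acute-7d (0.45, adjusted p = 0.249).

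The wider pathway held 93 other genes in 12 lists, of which 87 had a row. *Nfatc4*, *Chp2*, *Rcan2*, *Il3*, *Il4* and *Slc6a12* were not analysed here. In T_Dysf vs Acute-7d 6 were higher and 7 lower (4.79% and 4.42% of all genes). The counts were 9 and 10 in T_Dysf vs Acute-2d (5.85% and 6.01%), 13 and 14 in T_Dysf vs Effector (8.14% and 7.44%), 11 and 12 in Effector vs Acute-7d (7.70% and 7.16%), and 14 and 12 in Effector vs Acute-2d (7.94% and 7.79%). Among the 73 whose mean reached 50, 13 passed in T_Dysf vs Acute-7d, where 15.3% of all genes at that mean did, and 26 in T_Dysf vs Effector, where 26.3% did. In Acute-7d vs Acute-2d limma called 0 of the 87, with 11 at an unadjusted p under 0.05. Their median log2 fold change in T_Dysf vs Acute-7d was 0.11, against 0.00 over all genes.

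Upstream of store release, *Plcg1* encodes the main phospholipase of the T cell receptor. It was lower in T_Dysf than in Acute-2d (-0.58, limma adjusted p = 0.0334, passing in 7 of 16 alternatives). *Plcg1* was also lower in Effector than in Acute-7d (-0.64, 8 of 16) and Acute-2d (-0.78, 9 of 16). Its paralog *Plcg2* was at 952 and 943 normalized counts in T_Dysf, 361 to 412 in Effector and 507 to 637 in the Acute libraries. *Plcg2* was higher in T_Dysf than in Effector (1.29, adjusted p = 0.00947). T_Dysf vs Acute-7d (0.70, adjusted p = 0.0496) passed in 3 of 16 alternatives and was lost whichever library was left out, and T_Dysf vs Acute-2d (0.76, adjusted p = 0.0340) in 7 of 16. The release channel gene *Ryr3* was at 16.5 and 10.7 in T_Dysf and at 49.5 to 90.4 in the other 6 libraries, and T_Dysf vs Acute-7d was -2.46 on the log2 scale (adjusted p = 0.0154). Of the 11 genes of this list, 1 rose and 1 fell in T_Dysf vs Acute-7d, where 9.21% of all genes passed.

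Among 10 genes of calcium clearance, *Atp2b1*, a plasma membrane calcium pump, fell in T_Dysf vs Acute-7d (-0.64) and vs Effector (-0.84). *Atp2a2*, the store refilling pump SERCA2, was at 4398 and 7244 normalized counts in Effector and at 1959 to 3612 in the day 19 libraries, higher in Effector than in Acute-7d (1.18) and Acute-2d (1.52). *Mcu*, the pore of mitochondrial calcium uptake, was higher in Effector than in Acute-2d (1.14). Of 16 alternatives, *Atp2b1* passed in 8 and 13, *Atp2a2* in 7 and 10, and *Mcu* in 8, in the order given.

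Around calcineurin itself, *Chp1*, a calcineurin B homologous protein, was at 3429 and 3738 normalized counts in T_Dysf and at 2302 to 2721 in the other 6 libraries. *Chp1* was higher in T_Dysf than in Acute-7d (0.63, SE 0.07, adjusted p = 0.0115), Acute-2d (0.45) and Effector (0.44). Of 16 alternatives, these calls passed in 13, 8 and 11. Of 6 inhibitors and scaffolds, 0 passed in T_Dysf vs Acute-7d in limma (9.21% of all genes), with 2 at an unadjusted p under 0.05. *Fkbp1a* and *Ppia*, the binding partners of the calcineurin-blocking drugs FK506 and cyclosporin A, were higher in Effector than in Acute-7d (0.65 and 0.90), Acute-2d (0.61 and 0.90) and T_Dysf (T_Dysf vs Effector -0.91 for both). The *Fkbp1a* calls against Acute-7d and Acute-2d each passed in 7 of 16 alternatives. *Akap1*, a scaffold on mitochondria, was lower in T_Dysf than in Effector (-1.58).

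Kinases that rephosphorylate NFAT oppose calcineurin. *Dyrk2* was at 1575 and 1853 normalized counts in Effector, 3183 and 3180 in Acute-2d cells, 3469 and 2960 in Acute-7d, and 1085 and 1229 in T_Dysf. *Dyrk2* fell by 1.47 on the log2 scale in T_Dysf vs Acute-7d (SE 0.12, adjusted p = 0.00679) and by 1.46 in T_Dysf vs Acute-2d (adjusted p = 0.00547), and both calls held in all 16 alternatives. *Dyrk1b* was higher in T_Dysf than in Effector (1.67) and did not pass in T_Dysf vs Acute-7d (0.29). *Csnk1e*, a casein kinase, was lower in Effector than in Acute-7d (-0.58) and Acute-2d (-0.80) and, in T_Dysf, lower than in Acute-2d (-0.46). Of the 12 genes of this list, *Dyrk2* alone passed in T_Dysf vs Acute-7d (9.21% of all genes).

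Calmodulin also feeds kinases. *Camk2b* was at 2.59 and 14.2 normalized counts in T_Dysf, with the first library at its floor of 3 reads, and at 129 to 187 in the Acute libraries. Its fitted difference in T_Dysf vs Acute-7d was -4.38 (adjusted p = 0.0425), rests on these low values and passed in 6 of 16 alternatives. *Camkk1*, an upstream kinase gene, was at 377 and 371 in T_Dysf, 89.9 to 158 in the Acute libraries and 54.8 and 59.2 in Effector. Its paralog *Camkk2* was instead highest in Effector (659 and 753), and T_Dysf (429 and 474) lay inside its Acute range (269 to 516). *Camkk1* was higher in T_Dysf than in Acute-7d (1.73), Acute-2d (1.45) and Effector (2.69), and *Camk2d* was lower than in all 3 (-0.65, -0.78 and -0.80). Of 16 alternatives, the *Camkk1* calls passed in 11, 8 and 15 and the *Camk2d* calls in 10, 16 and 14, in the order given.

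**Figure D4:**
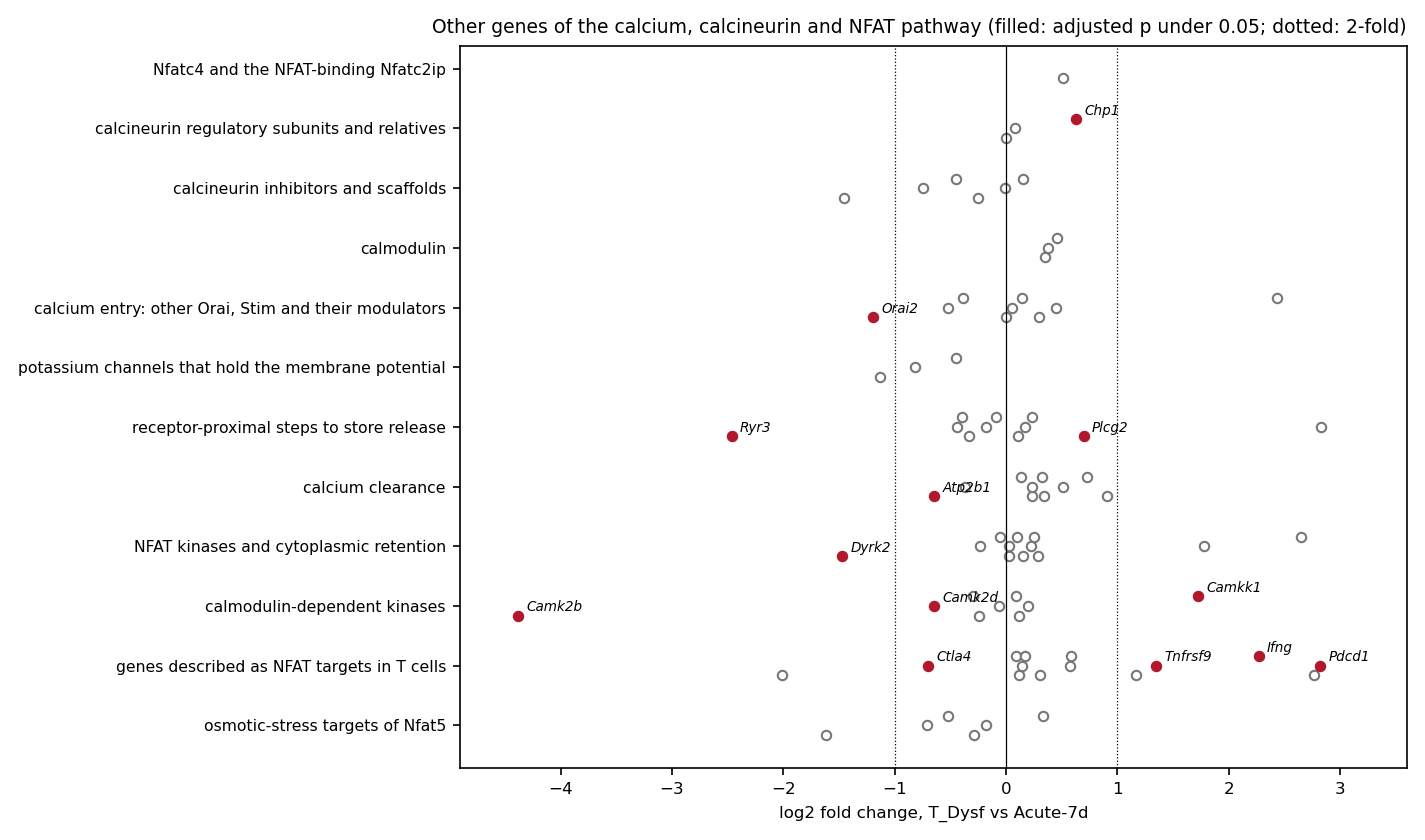
Log2 fold change in T_Dysf vs Acute-7d (horizontal axis) of 87 other pathway genes in 12 lists (vertical axis), filled and named where the adjusted p was under 0.05, with dotted lines at 2-fold. The 6 higher and 7 lower genes were spread over 7 lists.

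Genes described as NFAT targets in T cells did not move as 1 group. Of 14 with a row, 3 rose in T_Dysf vs Acute-7d (*Pdcd1*, *Ifng* and *Tnfrsf9*) and 1 fell (*Ctla4*), where 9.21% of all genes and 15.3% of those whose mean reached 50 passed. The study used PD-1 as a mark of repeatedly stimulated cells from this culture system, so the direction of *Pdcd1* is not independent evidence. *Pdcd1* was at 4017 and 3043 normalized counts in Effector, 352 and 462 in Acute-2d cells, 505 and 598 in Acute-7d, and 3754 and 4022 in T_Dysf. *Pdcd1* was higher in T_Dysf than in Acute-7d by 2.82 on the log2 scale (adjusted p = 0.00488), and T_Dysf vs Effector was 0.15. *Ifng*, the cytokine IFN-γ, was at 3441 and 3230 in T_Dysf and at 221 to 859 in the other 6 libraries, higher in T_Dysf vs Acute-7d by 2.27. Of 16 alternatives, this *Ifng* call passed in 10 and the *Tnfrsf9* call in T_Dysf vs Acute-7d in 9.

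*Tnfrsf9*, the costimulatory receptor 4-1BB, was at 2691 and 3009 in T_Dysf, 3207 and 4216 in Effector, and 951 to 1416 in the Acute libraries. In all Effector and T_Dysf libraries, *Orai2* and *Nfatc3* were lower than in the Acute libraries, though *Nfatc3* did not pass in T_Dysf vs Acute-2d. *Pdcd1* and *Tnfrsf9* were higher in the same libraries, a description of picked genes without a test. *Ctla4*, an inhibitory receptor, instead fell in T_Dysf vs Acute-7d (-0.70) and vs Acute-2d (-1.43). *Il2* stayed at 1.02 to 7.11 normalized counts in all libraries, and *Egr3* (2394 and 2572 in T_Dysf, 335 and 397 in Acute-7d) did not pass. *Irf4* and *Il2ra* were higher in Effector than in Acute-7d (1.39 and 1.66), and *Cd69* was lower (-2.14). *Ctla4* and the 5 genes after it were chosen after their values were seen.

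**Figure D5:**
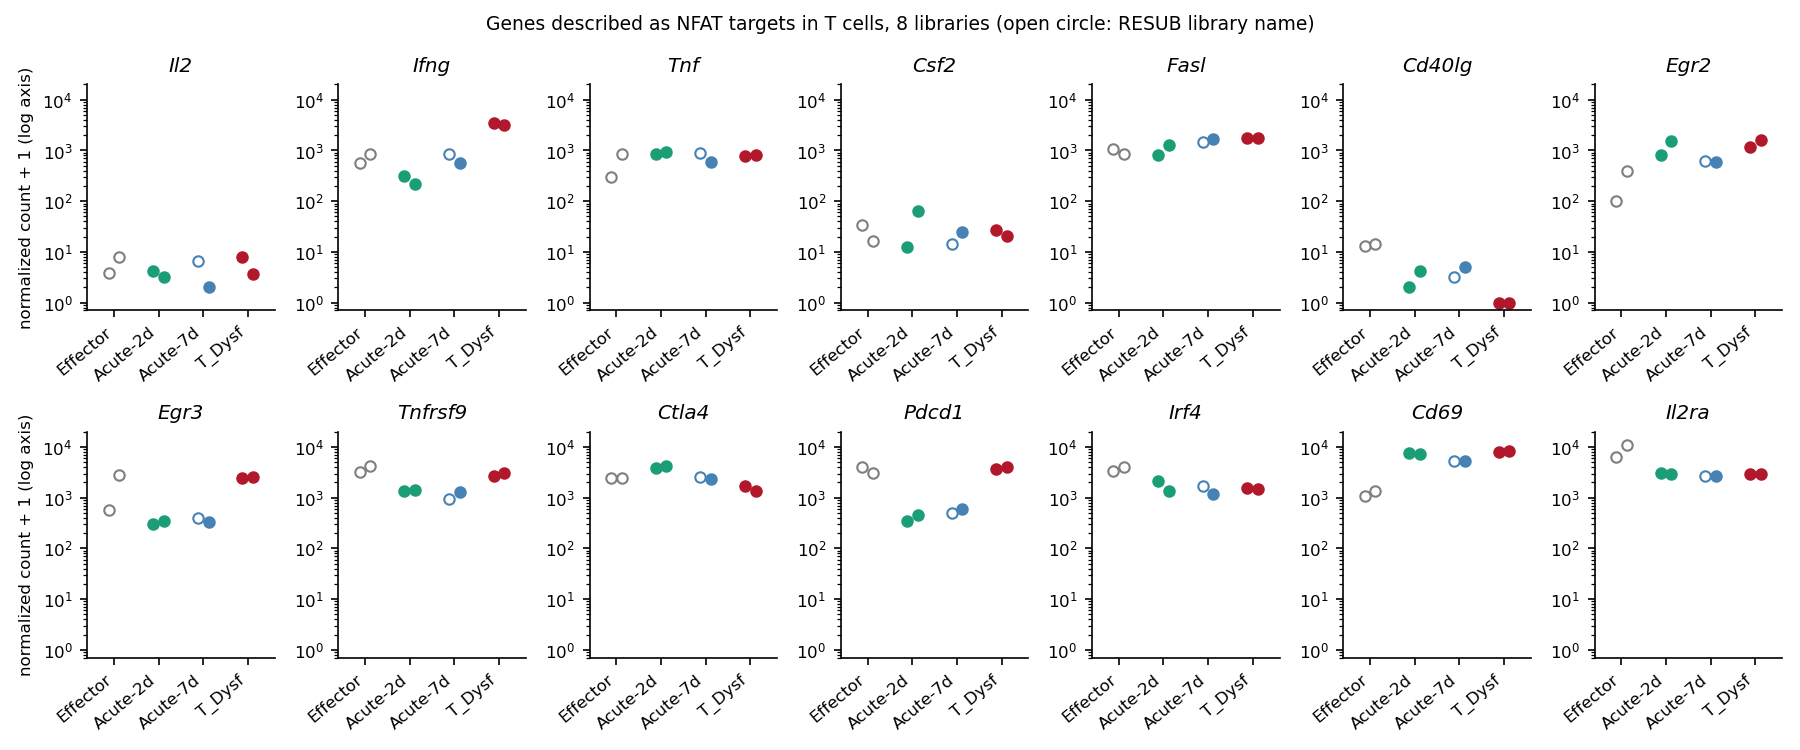
Normalized counts plus 1 (log axis) in the 8 libraries for the 14 genes described as NFAT targets in T cells, with open circles for RESUB library names. *Pdcd1* and *Tnfrsf9* were high in Effector and T_Dysf, *Ifng* was highest in T_Dysf (3441 and 3230), and *Il2* was under 8 in every library.

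*Nfatc2ip*, which encodes a protein that binds Nfatc2, was at 671 and 877 normalized counts in Effector, 296 and 258 in Acute-2d cells, 344 and 374 in Acute-7d, and 534 and 489 in T_Dysf. *Nfatc2ip* was higher in Effector than in Acute-7d (1.09) and Acute-2d (1.47). It was also higher in T_Dysf than in Acute-2d (0.88, limma adjusted p = 0.0295), a call that passed in 7 of 16 alternatives. Of the 3 potassium channel genes that hold the membrane potential for calcium entry, *Kcna3* and *Kcnn4* passed in no comparison, and *Kcna2*, at 60.5 normalized counts or less, was lower in T_Dysf than in Acute-2d.

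The pattern of *Orai1* over the 8 libraries was most like that of *Uqcrc1* (Pearson r 0.993 on log2 values), *Gins4* (0.992), *Nap1l4* (0.987), *Dlat* (0.979) and *Tubg1* (0.977), among the 12028 genes whose mean reached 50. These values are a description: the 8 libraries share their 4 conditions, and the Effector libraries set much of the range.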

How the data were processed

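Bulk polyA RNA-seq was made from 8 libraries, 2 for each of 4 conditions, grouped by GEO's treatment labels. The authors mapped the reads (STAR, mm10), assigned them to RefSeq transcripts in Partek Flow and deposited 1 signal value per gene and library, a count normalized by the DESeq2 median ratio. The raw counts were not recovered: 51.0% to 74.9% of low values per library were whole multiples of 1 read (tolerance 0.01), so no count model was used. The table held 24303 genes, 1263 of them at 0 in every library, and no column of a sample was left out (0 columns). Depth is the sum of values divided by the worth of 1 read.

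Values were tested as log2(normalized count + 1) with limma 3.58.1 in R 4.3.3 (group means, trended moderation, 4 residual degrees of freedom) over all genes and libraries, with Benjamini-Hochberg adjustment within each comparison, so a fold change of a low gene is understated. An exact permutation test of 2 against 2 libraries cannot pass 0.05. The methods describe pooling of activated cells on day 2, and the sources do not say which libraries shared a pool, so p-values measure the spread between these libraries, which may be partly technical. Where a library was left out, the lone library of its condition was assumed to vary like the other conditions. Plots used matplotlib 3.10.9, and tables pandas 2.3.3 with numpy 2.4.6 under Python 3.11.15. Scripts were tested on simulated data. Gene positions and lengths came from the GENCODE annotation of GRCm38/mm10, and promoters from RefSeq.

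The members and lists were chosen with earlier results of these data known. Named in full were the members, their paralogs, up to 3 genes of each list with a mean of at least 50 (those passing in any comparison with the largest change in T_Dysf vs Acute-7d), and the 5 genes most like the member of widest range. Some genes that this rule names are not reported here. Alternatives were pseudocounts of 0.1 and 10, a mean of at least 50, equal 75th percentiles, each pair of groups alone, a replicate block, a RESUB term, leaving out each library, and, added after the data were seen, a maximum of at least 50.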

Additional observations from a re-analysis of the deposited data

How the results depend on the processing

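With 2 libraries a condition, most calls near the threshold depend on the settings, and depth limits *Il2*, *Kcna2* and *Camk2b*, whose lowest values lie near 3 reads (2.59 to 3.35 normalized counts). Of 60 member differences, 43 kept their sign in all 16 alternatives, as did the 6 that passed. Both pseudocounts and equal 75th percentiles left every count of passing members as it was. Equal 75th percentiles moved the median of the genes whose mean reached 50 from 0.02 to -0.09 in Effector vs Acute-7d.

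With each pair of groups alone (fewer residual degrees of freedom), 0 members passed in all 6 comparisons, and the wider list had 8 in T_Dysf vs Acute-7d, 11 in T_Dysf vs Acute-2d, 6 in T_Dysf vs Effector, and 0 in Effector vs Acute-7d and Effector vs Acute-2d. With a RESUB term 0 members passed in any comparison or in the F test, and the wider list had 4, 12, 2, 8 and 1 in those 5 comparisons in the same order. With a mean of at least 50 (fewer genes tested), 4 members passed in T_Dysf vs Effector (*Stim1*, *Nfat5*, *Ppp3ca*, *Ppp3cc*), 4 in Effector vs Acute-7d and 3 in Effector vs Acute-2d, *Orai1* among the last 2 sets (adjusted p = 0.0423 and 0.0364 in limma), and the wider list had 21, 26, 35, 33 and 39 in the same order. With a maximum of at least 50, the member counts were the same and the wider list had 22, 27, 36, 32 and 38 in the same order.

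Whether the replicate numbers pair the libraries is not given in the sources used here. The replicate differences of 2 conditions correlated between -0.199 and 0.197 over 12028 genes, above 0.1 in 2 of 6 pairs of conditions. With 1 such difference a condition, this cannot show or exclude pairing. With the replicate block, T_Dysf vs Acute-7d had 0 members and 10 wider genes, T_Dysf vs Acute-2d 0 and 13, T_Dysf vs Effector 1 and 21, Effector vs Acute-7d 2 and 20, and Effector vs Acute-2d 1 and 22, and the F test had 1 member.

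Leaving out 1 library gave 0 to 2 members in T_Dysf vs Acute-7d (13 wider genes became 4 to 16, lowest without Acute-7d replicate 1), 0 to 3 in T_Dysf vs Effector (27 became 5 to 28, lowest without T_Dysf replicate 1), 0 to 4 in Effector vs Acute-7d (23 became 3 to 21, lowest without Acute-7d replicate 1), 1 to 3 in Effector vs Acute-2d (26 became 6 to 21, lowest without Acute-2d replicate 1) and 0 to 3 in the F test. In T_Dysf vs Acute-2d, 19 wider genes became 7 to 23, lowest without Acute-2d replicate 1, and in Acute-7d vs Acute-2d 0 became 0 to 1. Of 72 calls in 25 named wider genes, 8 passed in all alternatives and 72 kept their sign.

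None of the differences that changed sign had passed. With equal 75th percentiles, the sign turned in *Ppp3cc* T_Dysf vs Acute-7d (-0.021) and *Ppp3cb* Acute-7d vs Acute-2d (0.0015). With a RESUB term, the sign turned in *Nfatc2* T_Dysf vs Effector (0.19), *Nfatc2* Acute-7d vs Acute-2d (-0.064), *Ppp3cb* Acute-7d vs Acute-2d (0.076) and *Rcan1* Effector vs Acute-2d (0.26).

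Leaving out 1 library turned the sign, over these ranges, in *Nfat5* T_Dysf vs Acute-7d (-0.089 to 0.29), *Ppp3ca* T_Dysf vs Acute-7d (-0.17 to 0.14), *Ppp3cc* T_Dysf vs Acute-7d (-0.049 to 0.16), *Ppp3cb* T_Dysf vs Effector (-0.24 to 0.0067), *Nfatc2* Acute-7d vs Acute-2d (-0.064 to 0.34), *Rcan1* Acute-7d vs Acute-2d (-0.0055 to 0.28), *Ppp3ca* Acute-7d vs Acute-2d (-0.058 to 0.25) and *Ppp3cb* Acute-7d vs Acute-2d (-0.13 to 0.10). It also did so in *Orai1* Acute-7d vs Acute-2d (-0.16 to 0.21), *Stim1* Acute-7d vs Acute-2d (-0.092 to 0.0058), *Nfatc1* Effector vs Acute-7d (-0.36 to 0.22), *Nfatc1* Effector vs Acute-2d (-0.041 to 0.54), *Nfatc2* Effector vs Acute-2d (-0.23 to 0.060), *Nfat5* Effector vs Acute-2d (-0.41 to 0.15), *Rcan1* Effector vs Acute-2d (-0.13 to 0.085) and *Ppp3cc* Effector vs Acute-2d (-0.36 to 0.0017). The cause was not tested.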
